A study of Mus musculus with 4 samples.

Results

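Genes for endoplasmic reticulum (ER) chaperones and the unfolded protein response were examined in the salivary glands of mice lacking *Nfkbiz*, which encodes IκB-ζ, a nuclear regulator of NF-κB target genes. The set held 34 genes chosen by function: 8 stress sensors and transcription factors, 11 chaperones and co-chaperones, 6 disulfide and prolyl isomerases and 9 genes of ER-associated degradation. All 34 were found among 22206 transcript clusters of a whole-transcript array, 1 cluster for each gene, taken as the one with the highest mean where a gene had more than 1. The animals M47 and M49 were *Nfkbiz*-/- and the animals M30 and M55 were *Nfkbiz*+/+, with RNA of each hybridized to 1 array. All 4 were females aged 20 weeks that had not been cohoused with the other genotype, and each RNA sample held the parotid, sublingual and submandibular glands together. The deletion is germline and therefore present in every cell of the *Nfkbiz*-/- animals. Per the methods the colony was bred from heterozygotes on a 129/Ola × C57BL/6 background, whereas the label of M47 gives the strain as ICR and the other labels give none. Values are log2 intensities after robust multi-array averaging (RMA). In whole gland RNA, fewer cells of a type and less RNA per cell cannot be told apart.

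Salivary acinar cells load large amounts of secretory protein into the ER, where chaperones such as BiP fold it and oxidoreductases form its disulfide bonds. When unfolded protein accumulates, it is detected by the membrane sensors IRE1, PERK and ATF6. IRE1 splices *Xbp1* mRNA, PERK phosphorylates eIF2α and so favours translation of ATF4, and ATF6 is cleaved to release a transcription factor. The nuclear factors then raise chaperone genes and the degradation machinery that returns misfolded proteins to the cytosol for the proteasome. These steps act on proteins or by splicing, so an mRNA level is not a measure of a sensor's activity, and the array value of *Xbp1* sums its spliced and unspliced forms.

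The element through which ATF6 and XBP1 act on many chaperone genes is the ER stress response element, written CCAAT, any 9 bases, then CCACG. It is shown here because the members that carry it can be followed as a group below. RefSeq promoters on GRCm38.p6, from 250 bases before to 50 bases after each gene start, were available for 30 of the 34 members and searched on both strands. The element was present in 9 of these 30 genes, and in 39 of all 32851 promoters (0.119%). It was originally defined in promoters of such chaperone genes, so its presence among them is background and not a result. Capitals mark the element in windows with 8 further bases on either side, each read 5′ to 3′ on the strand on which the element reads CCAAT first.
*Hspa5*, chr2:34772017-34772051, plus strand: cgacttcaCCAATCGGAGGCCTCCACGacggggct
*Hsp90b1*, chr10:86705525-86705559, plus strand: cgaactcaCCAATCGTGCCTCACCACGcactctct
*Hsp90b1*, chr10:86705630-86705664, minus strand: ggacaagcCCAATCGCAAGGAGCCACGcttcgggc
*Calr*, chr8:84847067-84847101, plus strand: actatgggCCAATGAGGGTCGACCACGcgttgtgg
*Canx*, chr11:50325792-50325826, minus strand: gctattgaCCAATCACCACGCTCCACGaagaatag
*Creld2*, chr15:88819512-88819546, minus strand: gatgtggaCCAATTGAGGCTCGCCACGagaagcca
*Dnajc3*, chr14:118937819-118937853, plus strand: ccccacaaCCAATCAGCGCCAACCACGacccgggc
*Pdia6*, chr12:17266483-17266517, plus strand: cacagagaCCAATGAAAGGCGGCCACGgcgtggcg
*Syvn1*, chr19:6046524-6046558, plus strand: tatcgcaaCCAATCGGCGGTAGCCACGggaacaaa
*Derl3*, chr10:75893234-75893268, minus strand: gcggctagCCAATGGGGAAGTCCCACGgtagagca

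The 10 elements share only their fixed ends, and the 9 bases between them differ from gene to gene. *Hspa5*, the gene of BiP, is the classical target of the pathway, and its element lies at −65 to −47 from the gene start. The whole window of *Hspa5*, chr2:34771840-34772139 on the plus strand, shows the element in its context.
*Hspa5* promoter: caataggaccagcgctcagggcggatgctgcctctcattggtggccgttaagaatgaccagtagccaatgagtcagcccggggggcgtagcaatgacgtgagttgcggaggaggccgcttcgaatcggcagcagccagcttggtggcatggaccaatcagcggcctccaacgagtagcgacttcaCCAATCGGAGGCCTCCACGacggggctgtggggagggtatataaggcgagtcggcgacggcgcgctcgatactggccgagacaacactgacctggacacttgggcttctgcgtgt

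A related short form, ATTGG, any 1 base, then CCACG, was searched after the first results were seen. It was found in *Dnajb11* at 7 to 17 and in *Herpud1* at −52 to −42 from the gene start, and in 12 of all promoters (0.0365%).
*Dnajb11*, chr16:22857844-22857870, plus strand: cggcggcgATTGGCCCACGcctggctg
*Herpud1*, chr8:94386369-94386395, plus strand: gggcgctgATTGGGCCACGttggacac
The core CCACG, which is part of both elements, was in 24 of the 30 members and in 32.8% of all promoters. The XBP1 core TGACGTGG was in none of the 30, against 0.676% of all promoters. Of the E-boxes read by basic helix-loop-helix factors such as the *Bhlha15* product, CAGCTG was in *Calr*, *Pdia3* and *Syvn1* (16.3% of all promoters) and CATATG was in none (3.92%). A match of letters is a description and does not show that a factor binds there.

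The 4 arrays had medians of 4.83 to 4.89, and correlated at 0.981 for the *Nfkbiz*-/- pair, 0.971 for the *Nfkbiz*+/+ pair and 0.969 to 0.974 across genotypes. A difference of 2-fold or more was seen in 282 clusters between the *Nfkbiz*-/- mice and in 648 clusters between the *Nfkbiz*+/+ mice, so the *Nfkbiz*+/+ pair was the more divergent. The cluster of the targeted gene, *Nfkbiz*, had log2 values of 6.18 in M47 and 5.78 in M49 (*Nfkbiz*-/-) and of 5.04 in M30 and 7.29 in M55 (*Nfkbiz*+/+). No source used here tells whether its probes lie in the deleted part, and the genotypes cannot be checked from them. Markers of parotid acini, of submandibular and sublingual acini and of granular ducts had summed levels of at least 13.9 on the log2 scale in all 4 mice. Single markers could be far dimmer, such as *Prpmp5* at 5.10 in M55 and *Ren1* at 5.26 in M30. Acinar and duct tissue was thus present in every sample, but no marker list here separates sublingual from submandibular acini. Every member was expressed above the lower quartile of each array (3.44 to 3.53), the dimmest being *Trib3* at 4.83 to 5.24, and the median member stood at 8.52 to 8.79.

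Only *Atf6* among the 34 members passed both thresholds between genotypes, an unadjusted p under 0.05 together with a change of 1.5-fold or more, and it was higher in *Nfkbiz*-/- glands. None was lower. Among all clusters 2.93% were called higher and 3.69% lower in this way, so 1 of 34 is near the background. At an unadjusted p under 0.05 alone 2 members passed, *Atf6* and *Syvn1*, against 9.07% of all clusters. No adjusted p of a member was below 0.54 in limma. The log2 fold changes ran from −0.33 (*P4hb*) to 0.70 (*Atf6*) with a median of −0.003, against −0.02 over all clusters, and 16 members were above 0 and 18 below. In 10 members both *Nfkbiz*-/- values lay above both *Nfkbiz*+/+ values, where 18.2% of all clusters did so, and in 2 members both lay below, where 21.5% did. The 95% interval stayed within a 1.5-fold change in either direction for only 4 of the 34, so most members could differ by more than that without detection at this number of arrays. With 2 mice against 2 an exact permutation test cannot give a 2-sided p below 0.333.

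**Figure D1:**
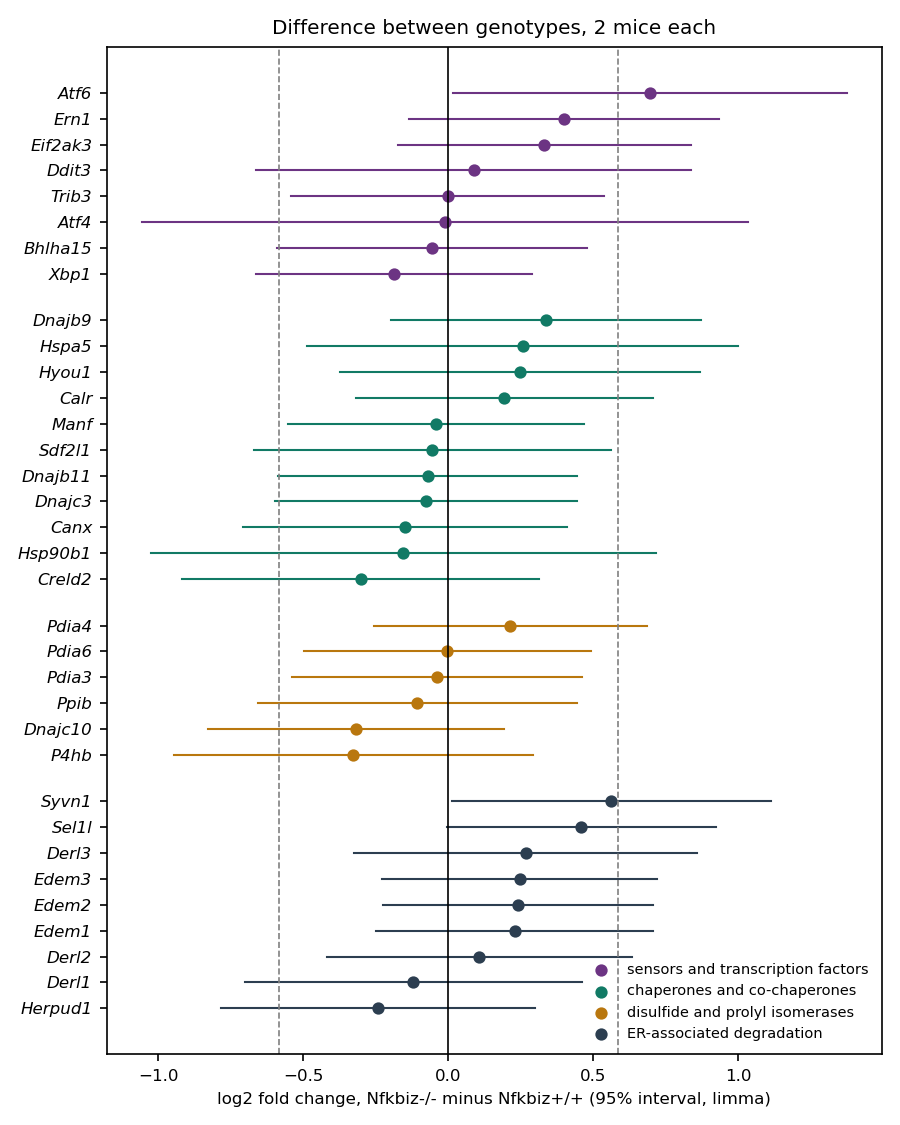
Log2 fold change of each member, *Nfkbiz*-/- minus *Nfkbiz*+/+, by role, with its 95% interval from limma over 2 mice of each genotype; dashed lines mark a 1.5-fold change. Only *Atf6* lies past the right line with an interval above 0, and the degradation genes lie mostly right of 0 while the chaperones fall on both sides.

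Of the sensors, *Atf6* (chr1:170704457-170867771, minus strand) gave 8.001 in M47 and 8.77 in M49, against 7.54 in M30 and 7.84 in M55. The groups did not overlap, but M49 stood well above the other 3 mice, and the gap between the *Nfkbiz*-/- mice (0.77) was wider than the difference between genotypes. The means were 8.39 ± 0.54 in *Nfkbiz*-/- and 7.69 ± 0.21 in *Nfkbiz*+/+ mice (SD, n = 2 each), a log2 fold change of 0.70 (SE 0.29, 95% interval 0.02 to 1.38, unadjusted p = 0.0457 and adjusted p = 0.54 in limma). The call was lost without M49 (0.31), without M30 (0.54) and without M55 (0.85, unadjusted p = 0.0523 in limma).

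*Ern1*, the gene of IRE1, gave 8.49 and 8.74 in M47 and M49, against 8.40 and 8.03 in M30 and M55. Both *Nfkbiz*-/- mice lay above both *Nfkbiz*+/+ mice, M47 by a small margin over M30, and the log2 fold change of 0.40 (SE 0.23) did not pass the test (unadjusted p = 0.121 in limma). *Eif2ak3*, the gene of PERK, gave 9.74 and 9.83 in M47 and M49, against 9.29 and 9.61 in M30 and M55, again without overlap. Its log2 fold change was 0.33 (SE 0.22, unadjusted p = 0.168 in limma). This order, found in all 3 sensor genes, was also that of 18.2% of all clusters.

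The transcription factors beneath the sensors did not follow that order. *Xbp1* gave 9.79 and 9.96 in M47 and M49, against 10.03 and 10.08 in M30 and M55. Both *Nfkbiz*-/- values were the lower ones, by a margin (log2 fold change −0.19, SE 0.20) that did not pass the test. *Atf4*, the factor translated when PERK is active, gave 7.95 and 8.59 in M47 and M49, against 7.57 and 8.99 in M30 and M55. The *Nfkbiz*+/+ mice were the lowest and the highest of the 4, and the log2 fold change of −0.01 had an SE of 0.45, the widest of any member. *Ddit3*, which encodes the pro-apoptotic factor CHOP, gave 7.34 and 7.22 in M47 and M49, against 6.71 and 7.68 in M30 and M55. Here too M30 was lowest and M55 highest. The log2 fold change was 0.09 (SE 0.32). A dimmer second cluster of *Ddit3*, whose identifier marks it as unmapped, gave −0.23 with the same order of the *Nfkbiz*+/+ mice (5.74 and 5.48 in M47 and M49, against 5.24 and 6.44 in M30 and M55). *Trib3*, a pseudokinase gene induced by CHOP, differed by less than 0.01 (SE 0.23). *Bhlha15*, which encodes the secretory cell factor MIST1, gave 9.34 and 8.95 in M47 and M49, against 9.09 and 9.30 in M30 and M55. Its groups overlapped and its log2 fold change was −0.06 (SE 0.23).

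**Figure D2:**
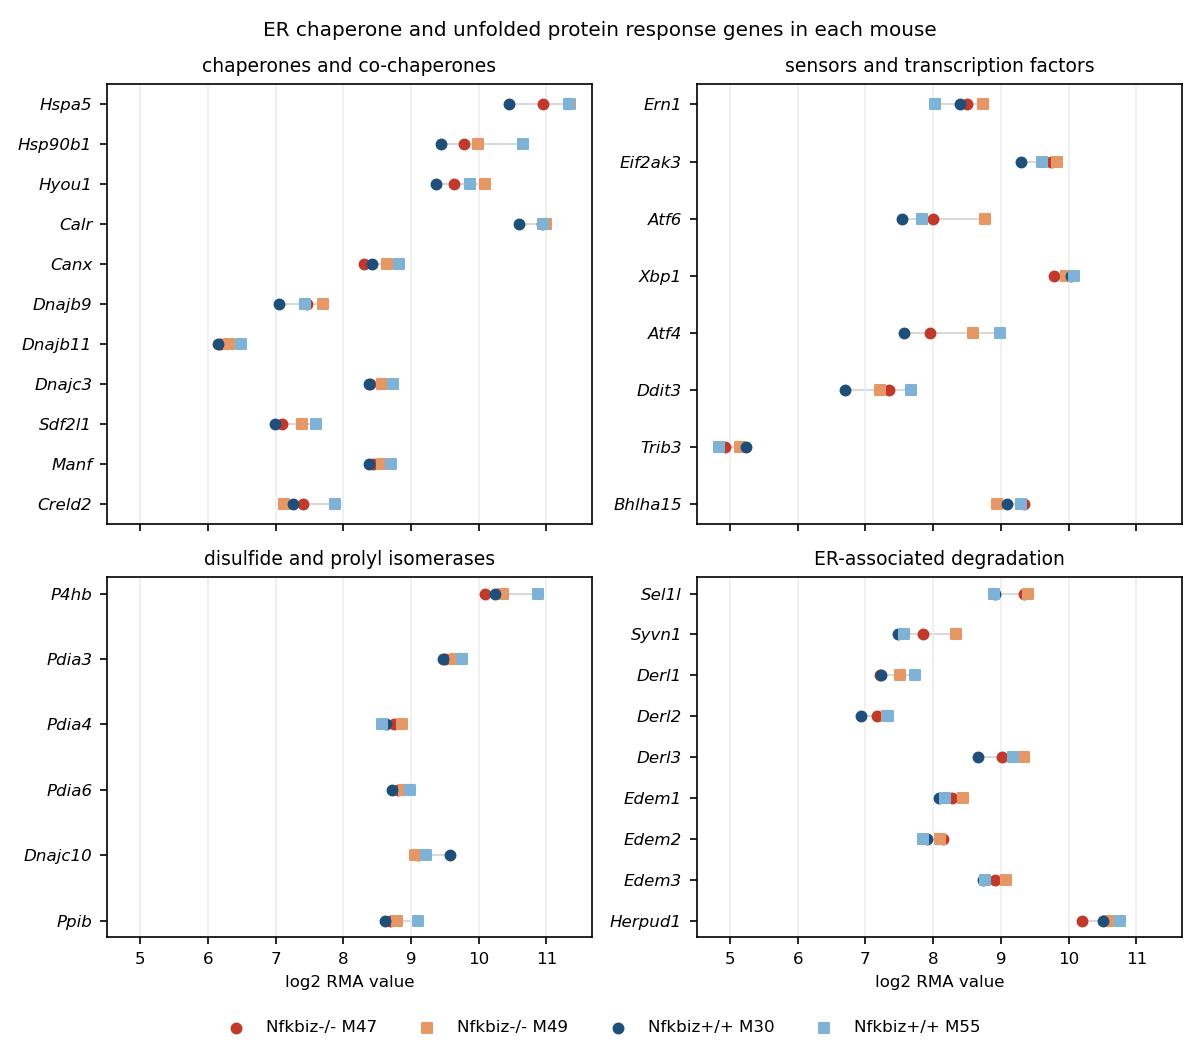
Log2 RMA value of every member in each of the 4 mice, in 4 panels by role; red and orange points are the *Nfkbiz*-/- mice M47 and M49, dark and light blue points the *Nfkbiz*+/+ mice M30 and M55. In *Hsp90b1*, *Dnajb11*, *Dnajc3*, *Sdf2l1* and *Manf* both the red and the orange point lie between the dark blue M30 and the light blue M55. In the other chaperones they do not both lie there. In *Sel1l*, *Syvn1* and *Edem1* to *Edem3* both blue points lie left of the red and orange points. Values of different genes come from different probes and are not comparable in level.

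No chaperone or co-chaperone gene was called, and the 11 log2 fold changes had a median of −0.05. *Hspa5* (chr2:34771970-34776531, plus strand) gave 10.94 and 11.35 in M47 and M49, against 10.45 and 11.33 in M30 and M55. M30 was low, while the other *Nfkbiz*+/+ mouse nearly equalled M49. The log2 fold change was 0.26 (SE 0.32, 95% interval −0.49 to 1.0). It was 0.70 without M55, which then passed both thresholds (unadjusted p = 0.0405 in limma), and −0.18 without M30. *Hsp90b1* (chr10:86690209-86705509, minus strand), the gene of the ER form of HSP90, GRP94, gave 9.78 and 9.99 in M47 and M49, against 9.44 and 10.65 in M30 and M55. The *Nfkbiz*-/- mice lay between the *Nfkbiz*+/+ mice, and the log2 fold change was −0.16 (SE 0.37). Without M30 it was −0.76 and called lower, and without M55 it was 0.45.

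*Calr* and *Canx* encode the lectin chaperones calreticulin and calnexin, which hold glycoproteins during folding. *Calr* gave 10.93 and 10.99 in M47 and M49, against 10.59 and 10.95 in M30 and M55. *Canx* gave 8.31 and 8.64 in M47 and M49, against 8.43 and 8.82 in M30 and M55. Both overlapped between genotypes, with log2 fold changes of 0.19 (SE 0.22) and −0.15 (SE 0.24). *Hyou1*, an exchange factor for BiP, had a log2 fold change of 0.25 (SE 0.27). Among the J-domain partners of BiP, *Dnajb9* had 0.34 (SE 0.23) and was the only chaperone gene whose groups did not overlap. Over all clusters 18.2% were higher and 21.5% lower without overlap. *Dnajb11* had −0.07 (SE 0.22) and *Dnajc3* −0.08 (SE 0.22). The stress-inducible genes *Sdf2l1*, a partner of *Dnajb11*, and *Manf*, a secreted ER protein, had −0.05 (SE 0.26) and −0.04 (SE 0.22). *Creld2*, another stress-inducible ER gene, had −0.30 (SE 0.26), and −0.61 without M30, when it was called lower.

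The isomerase genes likewise gave no call, with a median log2 fold change of −0.07. *P4hb*, the gene of protein disulfide isomerase, gave 10.09 and 10.35 in M47 and M49, against 10.23 and 10.87 in M30 and M55. M55 was the high mouse, the groups overlapped, and the log2 fold change of −0.33 (SE 0.27) was −0.64 and called lower without M30. *Pdia3*, the isomerase that works with calreticulin and calnexin, gave 9.50 and 9.65 in M47 and M49, against 9.48 and 9.75 in M30 and M55. The *Nfkbiz*-/- mice lay inside the *Nfkbiz*+/+ range, with a log2 fold change of −0.04 (SE 0.22). *Pdia6*, also a disulfide isomerase, had a log2 fold change within 0.01 of 0 (SE 0.21), and *Ppib*, the ER cyclophilin and prolyl isomerase, had −0.11 (SE 0.24). The groups did not overlap in *Pdia4* and *Dnajc10*. *Pdia4*, another disulfide isomerase, was above in both *Nfkbiz*-/- mice (0.21, SE 0.20), as were 18.2% of all clusters. *Dnajc10*, an ER reductase, was below in both (−0.32, SE 0.22), as were 21.5%.

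The genes of ER-associated degradation had the highest median of the 4 roles, 0.24, with 7 of 9 above 0, but none passed both thresholds. A further 28 genes of the same process outside the 34 did not share this, with a median of −0.14, 12 above 0 and 16 below. *Syvn1* (chr19:6046576-6053718, plus strand), the gene of the ubiquitin ligase HRD1, gave 7.85 and 8.33 in M47 and M49, against 7.48 and 7.57 in M30 and M55. M49 stood highest, and the groups did not overlap. The log2 fold change was 0.56 (SE 0.24, 95% interval 0.01 to 1.11, unadjusted p = 0.0461 and adjusted p = 0.54 in limma), just short of 1.5-fold, which is 0.58 on this scale. It passed both thresholds without M47 (0.80). *Sel1l* (chr12:91806043-91849157, minus strand), the partner that links substrates to HRD1, gave 9.34 and 9.39 in M47 and M49, against 8.91 and 8.91 in M30 and M55. Both pairs agreed closely within genotype and did not overlap, and the log2 fold change was 0.46 (SE 0.20, unadjusted p = 0.0521 in limma), between 0.43 and 0.49 whichever mouse was left out.

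*Edem1*, *Edem2* and *Edem3*, which trim mannose residues and so mark glycoproteins for disposal, had log2 fold changes of 0.23, 0.24 and 0.25 (SE 0.20 each) without overlap. Together with *Sel1l* and *Syvn1* these made 5 of the 9 degradation genes with both *Nfkbiz*-/- values above both *Nfkbiz*+/+ values, where 18.2% of all clusters had them. The derlins, membrane proteins of the export channel, gave no such order. *Derl1* gave 7.22 and 7.51 in M47 and M49, against 7.23 and 7.74 in M30 and M55. Its log2 fold change was −0.12 (SE 0.25), that of *Derl2* 0.11 (SE 0.23) and that of *Derl3* 0.27 (SE 0.25), all with overlap. *Herpud1*, a stress-induced scaffold of the HRD1 complex, had −0.24 (SE 0.23). Whether the degradation genes differ from the chaperones was not tested, since the members were chosen with earlier results of these data known.

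Mice of 1 genotype differed from each other in most members. M55 exceeded M30 in 28 of the 34 members, with a median difference of 0.34, whereas it did so in 48.5% of all clusters and in 56.6% of the clusters at least as bright as the dimmest member. M49 exceeded M47 in 29 of the 34, by a smaller median of 0.17, against 48.0% of all clusters and 45.8% of those at least as bright as the dimmest member. The latter set is not matched to the members in brightness. The upper quartile of the arrays was 6.13 to 6.19, whereas the median member stood at 8.52 to 8.79. Both orders held in 25 members, and in 5106 of the 22206 clusters. The gap within *Nfkbiz*+/+ mice was wider than the difference between genotypes in 24 of the 34, against 58.9% of all clusters. The genes of 1 array share its normalization and its RNA, so these are descriptions of 2 pairs of mice and were not tested.

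The order was without exception in the chaperones. All 11 were higher in M55 than in M30, by 0.33 (*Manf*) to 1.21 (*Hsp90b1*) with *Hspa5* at 0.88 and a median of 0.40. In all 11 that gap exceeded both the genotype difference and the gap between M49 and M47. Over all clusters it exceeded the first in 58.9% and the second in 56.7%. Of 26 further chaperones, cyclophilins and FKBPs outside the 34, 15 were higher in M55. The order was not particular to ER chaperones. Of 7 cytosolic heat shock genes 6 had it, with a median gap of 0.61, and of 28 further degradation genes 21 did. The isomerases had 4 of 6 higher in M55, among them *P4hb* (0.63) and *Ppib* (0.48). *Atf4* (1.42) and *Ddit3* (0.97) had the same order, whereas of 22 further ATF4 and CHOP targets outside the 34 only 11 were higher in M55. The gaps of these 22 had a median of 0.02 and ran from −0.54 to 3.23, the last in *Atf3*. The degradation genes had a median gap of only 0.10 between M55 and M30, with 7 of 9 higher in M55. The 9 genes with an ER stress response element in the promoter were all higher in M55, by 0.10 (*Syvn1*) to 1.21, with a median of 0.40. Of the 21 genes with a searched promoter but no element 15 were, with a median of 0.26. The 4 genes with no promoter given were all higher too, with a median of 0.42. Most of the 9 are chaperones, and chaperones searched without finding the element were also higher (*Dnajb9* 0.38, *Dnajb11* 0.35, *Sdf2l1* 0.60). A part of the element in this order was not tested. Between genotypes the median of the 9 and that of the 21 were each less than 0.01 from 0.

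**Figure D3:**
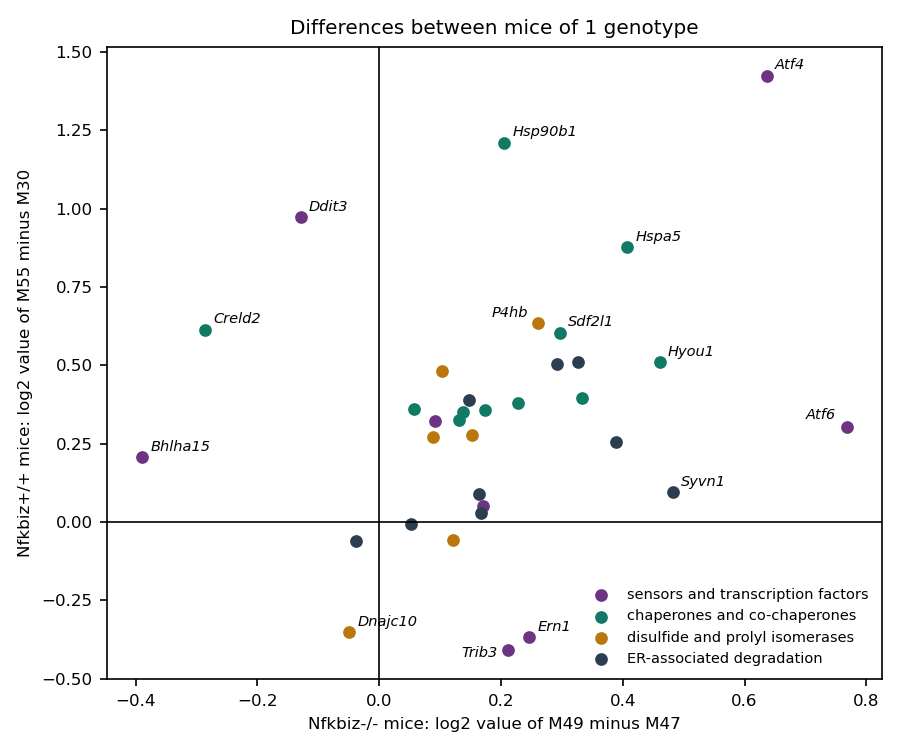
Difference in log2 RMA value between the *Nfkbiz*-/- mice (M49 minus M47, horizontal) and between the *Nfkbiz*+/+ mice (M55 minus M30, vertical) for each of the 34 members, coloured by role. Most points lie in the upper right of the plot, and *Atf4*, *Hsp90b1*, *Ddit3* and *Hspa5* have the widest gaps between the *Nfkbiz*+/+ mice.

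Several markers of cell content differed between the same mice. The summed level of 7 granular duct markers was 14.4 in M47 and 14.2 in M49, against 13.9 in M30 and 14.6 in M55, so that M30 was lowest and M55 highest, as in *Hsp90b1*, *Dnajb11*, *Dnajc3*, *Sdf2l1* and *Manf*. The summed level of 6 parotid acinar markers was 15.1 and 15.2 in M47 and M49, against 15.1 in M30 and 14.3 in M55. The sum for 7 submandibular and sublingual acinar markers was 15.0 in both *Nfkbiz*-/- mice and 15.2 in both *Nfkbiz*+/+ mice. M55 thus had the least parotid signal and the most granular duct signal of the 4.

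M55 also carried fat and muscle signal: 6 fat cell markers summed to 6.63 and 6.90 in M47 and M49, against 7.13 in M30 and 9.59 in M55, and 6 skeletal muscle markers to 6.60 and 6.57 in M47 and M49, against 6.75 in M30 and 8.33 in M55. The 5 erythroid markers were lower in *Nfkbiz*-/- mice (7.83 and 9.35, against 12.3 and 11.6 in *Nfkbiz*+/+ mice), with 4 of 5 called lower, among them *Hba-a1* and *Hba-a2*, whose values were identical. For plasma cells, which are rich in ER, 8 markers summed to 8.17 and 8.06 in *Nfkbiz*-/- mice, against 7.73 and 7.75 in *Nfkbiz*+/+ mice. Only *Jchain* of the 8 was called higher, at 6.58 and 6.20 in M47 and M49, against 3.42 and 3.61 in M30 and M55. The median log2 fold change of the 8 was 0.04. *Prdm1*, *Pou2af1* and *Irf4* were also above 0, while *Tnfrsf17*, *Mzb1*, *Sdc1* and *Cd38* were below. The order of the sums is thus not that of the list as a whole. The 6 macrophage markers summed to 8.69 and 8.64 in *Nfkbiz*-/- mice, against 7.70 and 8.37 in *Nfkbiz*+/+ mice, with 3 called higher. Of the others, *C1qb* and *Csf1r* lay above 0 and *Adgre1* below (−0.47). Also called lower were 3 of 6 fat, 2 of 6 muscle and 2 of 7 submandibular and sublingual markers. Also called higher were 2 of 7 granular duct markers and 1 of 6 parotid markers. The shares over all clusters were 2.93% higher and 3.69% lower. The part of these cell types in the values of the chaperone and degradation genes was not tested.

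Beyond the 34 members, 144 of 145 further genes of ER folding and stress were found, with 5 called higher and 8 lower in *Nfkbiz*-/- mice and a median log2 fold change of −0.04. These are 3.47% higher and 5.56% lower, near the 2.93% and 3.69% of all clusters. By role, the calls were 2 higher and 1 lower of 22 stress signalling genes, 1 lower of 22 ATF4 and CHOP targets, 4 lower of 26 further chaperones, cyclophilins and FKBPs, 1 lower of 23 disulfide formation and thioredoxin family genes, 3 higher of 16 N-glycan genes and 1 lower of 28 further degradation genes. None of 7 cytosolic heat shock genes was called, and all 7 lay below 0, between −0.34 and −0.04. The smallest adjusted p over these genes was 0.468 in limma.

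*Eif2ak2*, which encodes PKR, an eIF2α kinase activated by double-stranded RNA, had the smallest unadjusted p of these genes. It gave 7.60 and 7.48 in M47 and M49, against 6.38 and 6.24 in M30 and M55. The pairs agreed within genotype and lay far apart, with a log2 fold change of 1.22 (SE 0.20, unadjusted p = 0.000415 in limma). *Creb3l2*, a membrane-bound transcription factor related to ATF6, gave 8.45 and 8.48 in M47 and M49, against 7.38 and 7.64 in M30 and M55 (0.95, SE 0.21). Its relative *Creb3l4*, named after its values were seen, moved the other way, with 7.04 and 6.85 in M47 and M49, against 8.08 and 7.29 in M30 and M55 (−0.74, SE 0.29), and was not called without M47, M49 or M30 (−0.35 without M30).

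The 3 N-glycan genes called higher were *Rpn2* (0.96, SE 0.25), a subunit of oligosaccharyltransferase, *Man1a* (0.90, SE 0.32), a Golgi mannosidase, and *Dpagt1* (0.75, SE 0.23), which starts the lipid-linked glycan. Their groups did not overlap, which selection by both thresholds favours. The calls were lost without M49, and those of *Man1a* (0.44) and *Dpagt1* (0.60) also without M55.

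*Agr2*, a disulfide isomerase of mucus-secreting cells, gave 4.98 and 5.53 in M47 and M49, against 6.50 and 6.82 in M30 and M55. Both *Nfkbiz*-/- mice were low, with a log2 fold change of −1.41 (SE 0.26, unadjusted p = 0.000752 in limma). Of the 7 submandibular and sublingual acinar markers, *Dcpp2* (−0.67) and *Dcpp3* (−0.61) were called lower as well, against 3.69% of all clusters. Without a call, *Aqp5* (−0.38), *Pip* (−0.12) and *Mucl2* (−0.07) lay below 0, and *Smgc* (0.01) and *Slc12a2* (0.04) above it. The part of these acini in the *Agr2* value was not tested. *Nupr1*, a stress-induced nuclear regulator, gave 10.17 and 9.85 in M47 and M49, against 10.63 and 11.17 in M30 and M55 (−0.89, SE 0.26).

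*Cnpy4* (−0.90, SE 0.21), *Fkbp14* (−0.90, SE 0.30), *Fkbp2* (−0.71, SE 0.22) and *Sdf2* (−0.65, SE 0.24), a canopy family gene, 2 ER prolyl isomerases and the relative of *Sdf2l1*, were the chaperone-type genes called lower. *Selk*, a selenoprotein gene of ER-associated degradation, was called lower at −0.70 (SE 0.26). None of these overlapped between genotypes, which selection by both thresholds favours. *Cnpy4* and *Fkbp14* were dim, at 3.45 to 3.67 in *Nfkbiz*-/- and 4.02 to 4.88 in *Nfkbiz*+/+ mice where the lower quartile of the arrays was 3.44 to 3.53. Both are left out when only clusters above the median signal are tested, and 6 genes are then called lower. Of the 13 genes called, *Eif2ak2*, *Creb3l2*, *Cnpy4* and *Agr2* kept the call whichever mouse was left out. *Nupr1* and *Rpn2* lost it without M49, *Sdf2*, *Fkbp2* and *Selk* without M47 or M55, and *Fkbp14*, *Man1a* and *Dpagt1* without M49 or M55. *Fkbp14* was at −0.47 and *Selk* at −0.44 when M55 was left out.

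**Figure D4:**
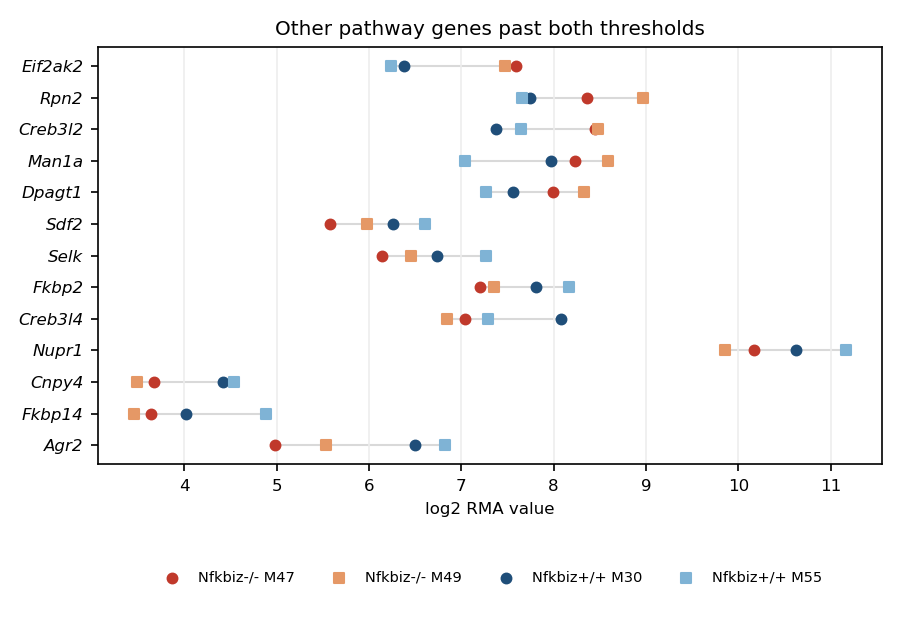
Log2 RMA value in each of the 4 mice for the 13 genes of the wider pathway that passed both thresholds, ordered by log2 fold change; red and orange points are the *Nfkbiz*-/- mice, dark and light blue points the *Nfkbiz*+/+ mice. *Eif2ak2* is at the top (1.22) and *Agr2* at the bottom (−1.41). The groups do not overlap in any of the 13, which selection by both thresholds favours and which is not a further result. Over all clusters 18.2% were higher and 21.5% lower without overlap.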

How the data were processed

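The authors hybridized 1 Affymetrix array for each mouse with the WT PLUS kit and obtained gene-level RMA values with Affymetrix Power Tools. These deposited log2 values were used unchanged. For the annotation version, none is given in the sources used here. The authors' own fold changes, p-values and GO and KEGG sheets were not used.

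Genotypes came from the labels. All 22206 clusters were fitted in limma 3.58.1 (lmFit, eBayes; R 4.3.3), taking *Nfkbiz*-/- minus *Nfkbiz*+/+ (2 residual and 5.53 prior degrees of freedom), tested on simulated data first. A cluster was called at an unadjusted p under 0.05 and a 1.5-fold change. Adjusted p-values are Benjamini-Hochberg over all clusters. Each p measures only the spread between these mice, and the number of arrays limits the precision.

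Coordinates of clusters were taken from the annotation as deposited, and all 34 overlapped the gene of that name on GRCm38.p6. *Atf6*, *Derl1*, *Hyou1* and *Manf* had no promoter in the RefSeq table. *Mbtps2* of the wider pathway and *Dcpp1* and *Muc19* of the marker lists were not analysed here. Summed marker levels are log2 of the summed linear values.

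The members and lists were chosen with earlier results of these data known. Every member is accounted for, with values in each mouse for those past a threshold and the best known of each role. Of the other pathway genes at most 12 past both thresholds were to be named, by the moderated statistic. The alternatives were the methods' t-test in its equal and unequal variance forms, an intensity trend, median-centred arrays, a further quantile normalization, 1 cluster per gene, leaving out clusters below the median signal, the other deposited table, other thresholds, the dimmer cluster of *Ddit3*, and leaving out each mouse, where the lone mouse is assumed to vary like the other genotype.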

Additional observations from a re-analysis of the deposited data

How the results depend on the processing

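Under the methods' t-test, with equal or with unequal variances, 0 members were called higher. The count was 2 after a further quantile normalization (*Atf6* and *Syvn1*) and at an unadjusted p alone, and 0 at a 2-fold threshold. Other pathway genes called higher numbered 2 and 1 by the t-tests, and those called lower 2 and 1. Signs near 0 turned after the further quantile normalization in *Atf4* (0.041), *Trib3* (0.012), *Pdia3* (0.0064) and *Pdia6* (0.071), and with median-centred arrays in *Atf4* (0.0040), *Trib3* (0.013) and *Pdia6* (0.011). The dimmer, unmapped cluster of *Ddit3* gave −0.23. The causes were not tested. The intensity trend, the median-signal filter, 1 cluster per gene and the other deposited table changed no direction and no call of a member, and with the filter 6 other pathway genes were called lower.

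Leaving out 1 mouse at a time, members called higher ran from 0 to 2 and lower from 0 to 3, and other pathway genes called higher from 2 to 8 and lower from 4 to 16, while 5.05%, 5.08%, 12.1% and 8.93% of all clusters were called without M47, M49, M30 and M55. The median log2 fold change ran from −0.15 to 0.21 over the members, from 0.0054 to 0.36 over the sensors and transcription factors, from −0.25 to 0.25 over the chaperones, from −0.16 to 0.12 over the isomerases and from 0.15 to 0.31 over the degradation genes. The sign turned without at least 1 mouse in *Atf4* (−0.72 to 0.70), *Ddit3* (−0.40 to 0.57), *Trib3* (−0.21 to 0.20), *Bhlha15* (−0.25 to 0.14), *Hspa5* (−0.18 to 0.70), *Hsp90b1* (−0.76 to 0.45), *Hyou1* (−0.0065 to 0.50), *Canx* (−0.35 to 0.049), *Dnajb11* (−0.25 to 0.11), *Dnajc3* (−0.25 to 0.10), *Sdf2l1* (−0.36 to 0.25), *Manf* (−0.21 to 0.12), *Creld2* (−0.61 to 0.0045), *Pdia3* (−0.18 to 0.10), *Pdia6* (−0.14 to 0.13), *Ppib* (−0.35 to 0.13), *Derl1* (−0.37 to 0.13) and *Derl2* (−0.086 to 0.30).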
